A study of Mus musculus with 6 samples.

Results

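The translation initiation and elongation factors were taken as every gene row whose symbol begins with Eif1 to Eif6 or with Eef1 or Eef2. This rule used no measured value and found 64 of the 24413 gene rows. Transcript levels came from RNA-seq of W-EGFP cells, which are interstitial cells of the fetal testis from FLE-EGFP mice at E16.5. EGFP in them is driven by the Nr5a1 enhancer of fetal Leydig cells. Per the labels, each sample held 10000 cells, exposed for 1 hour either to SAG at 0.5 µM, which activates the Hedgehog transducer Smoothened (3 libraries), or to its vehicle DMSO (3 libraries). Columns of SAG and DMSO alike are marked "siCnt", a term that the labels do not explain.

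Translation of most messengers begins when the cap-binding complex eIF4F (eIF4E, eIF4G and the helicase eIF4A) recruits a small ribosomal subunit that carries eIF1, eIF1A, eIF3, eIF5 and a ternary complex of eIF2, GTP and initiator tRNA. The exchange factor eIF2B reloads eIF2 with GTP, and kinases that phosphorylate the alpha subunit of eIF2 block this step under stress. eIF5B joins the large subunit, after which eEF1A brings aminoacyl-tRNAs, eEF1B recharges eEF1A, eEF2 moves the ribosome along and eIF5A helps it through difficult peptide bonds. Many messengers of this machinery are controlled by mTOR or by MYC in growing cells.

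The SAG libraries held 7694479 to 8804335 reads and the DMSO libraries 18486396 to 25491259. Spike-in RNAs had 54 to 1205 reads in the SAG libraries and 0 in each DMSO library. Depth and spike-in reads thus split by group, so a difference in library preparation cannot be told apart from SAG in any comparison here. SAG replicate 3 stood apart on the second principal component (20.8% of the variance) and gave 1.67% of reads to Rn45s, a ribosomal RNA gene, where the rest gave 0.326% to 0.360%. Markers of interstitial cells were present for 8 of 8 genes, with a summed signal of 1660 to 2031 in SAG and 1470 to 1562 in DMSO. Among these markers 5 rose, with Pdgfra, Tcf21, Nr2f1 and Nr2f2 among them, Wnt5a fell, and Nr5a1 and Nes were not called. The median log2 fold change of the list was 0.76. Pdgfra averaged 220 ± 8.69 in SAG and 34.7 ± 2.36 in DMSO, and Wnt5a 77.5 ± 5.86 in SAG and 141 ± 2.48 in DMSO (SD, n = 3 each). Fetal Leydig markers summed to 19.0 to 116 in SAG, with the highest value in SAG replicate 3, and to 32.3 to 33.3 in DMSO, and the hormone receptor gene Lhcgr was at 0. Summed Sertoli markers (6 genes, none at 0) ran from 38.0 to 41.4 in SAG and 41.3 to 46.7 in DMSO, and endothelial markers (6 genes, none at 0) from 35.2 to 50.1 and from 31.3 to 38.1. Summed macrophage and germ cell markers stayed at or under 3.41 and 1.16 in any library. At 0 in every library were 4 of 7 germ cell markers (Dppa3, Pou5f1, Nanos2 and Mael). The part of these differences in the results was not tested.

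More factor transcripts fell than rose with SAG. Of 62 rows with a mean signal of at least 1, 20 fell and 2 rose (limma on log2(signal + 1), Benjamini-Hochberg adjusted p under 0.05 over all genes), which is 32.3% and 3.23% of those rows. Among all 12550 genes tested, 16.6% fell and 12.9% rose, or 29.6% in either direction (42.2% at an unadjusted p under 0.05). The signal is the authors' CPM with scaling factors inside, and log2 fold changes are SAG minus DMSO. The median log2 fold change was -0.29 over the factors and -0.03 over all genes tested. Every SAG library lay below every DMSO library for 32 factor rows and above for 6, together 61.3% of the rows, against 48.0% of all genes (26.8% below and 21.2% above). In bulk samples, fewer cells of a type and less RNA per cell cannot be told apart.

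**Figure D1:**
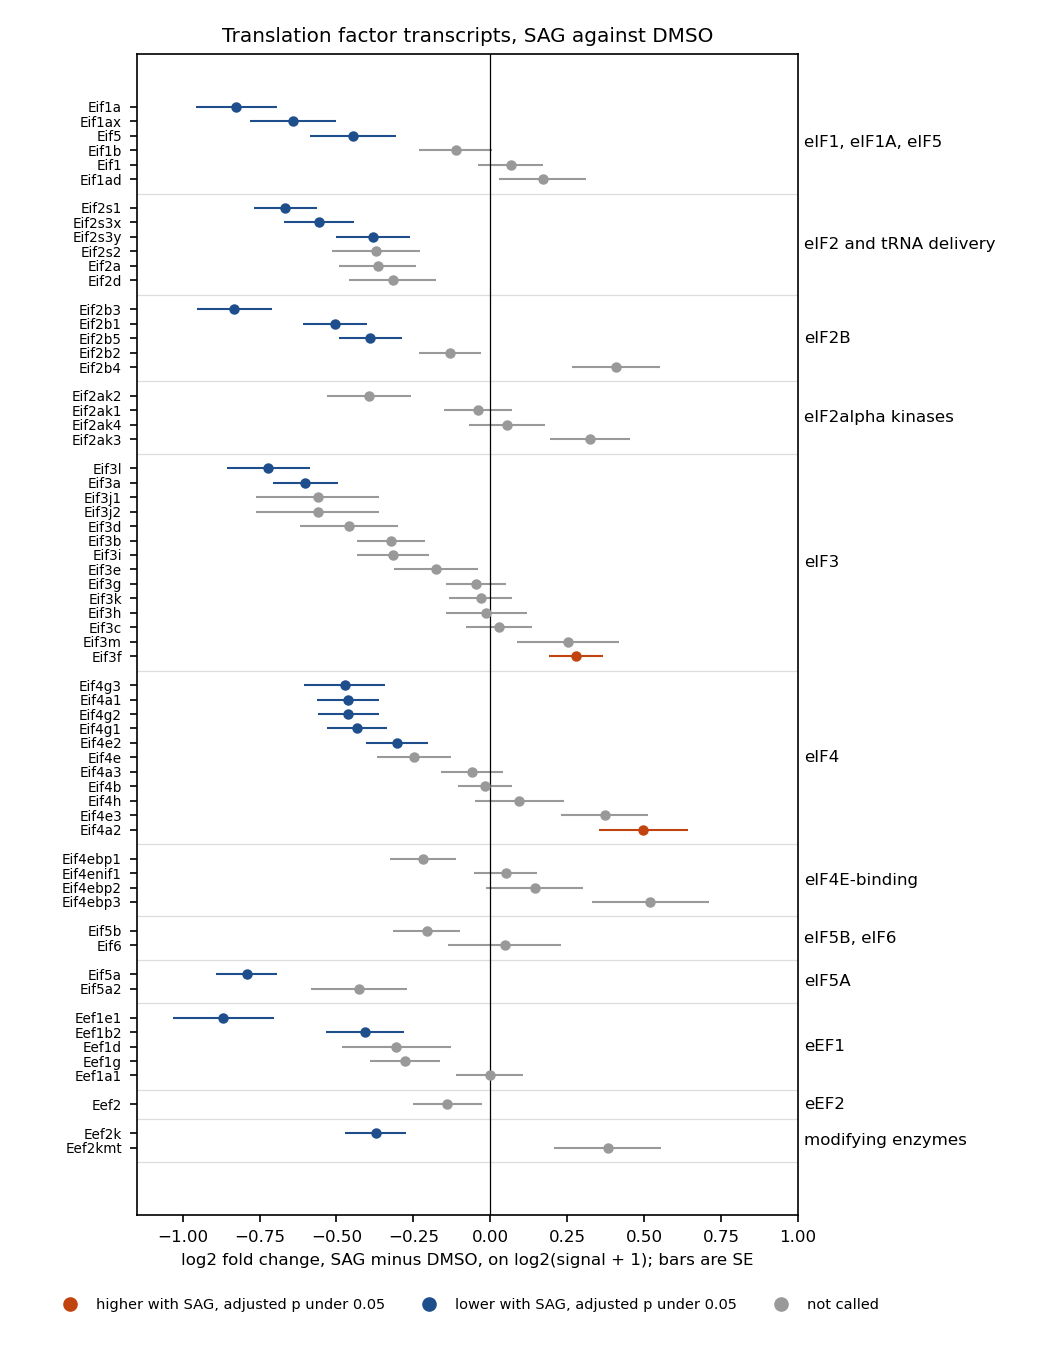
Log2 fold change of each tested factor row, SAG minus DMSO, with its SE, grouped by role from top to bottom. Points left of 0 are lower with SAG; the 20 rows called lower are blue, the 2 called higher (Eif4a2 and Eif3f) are red, and grey rows were not called.

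With each library scaled by its total alone, the median over all genes moved to 0.10 and the factors split into 7 higher and 13 lower, against 19.7% and 10.0% of all genes; the median of the factors was then -0.15. Relative to the median gene the factors lay at -0.26 with the deposited scaling and -0.25 with totals. Without DMSO replicate 1, 2 or 3 the lower rows numbered 12, 12 and 11 with 0 higher. Of all genes, 8.71%, 9.04% and 8.65% were lower and 7.41%, 7.71% and 7.18% higher in those 3 settings. Without SAG replicate 3 the lower rows numbered 33 with 3 higher, when 19.7% of all genes were higher and 27.0% lower. The 13 further rows called lower without SAG replicate 3 were Eef1d, Eef1g, Eif2a, Eif2ak2, Eif2s2, Eif3b, Eif3d, Eif3e, Eif3i, Eif3j1, Eif3j2, Eif4e and Eif5b. Of the 22 called rows, 10 kept their call in all 18 alternatives tried: Eif1a, Eif1ax, Eif2s1, Eif2s3x, Eif2b1, Eif2b3, Eif3a, Eif3l, Eif5a and Eef1e1.

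Rows outside these tests were Eif4e1b, an oocyte form of the cap-binding protein, with 0 reads in every library, and Eef1a2, the eEF1A form of muscle and neurons, with 1 read in SAG replicate 1 and 0 elsewhere. A count of 0 allows up to 3 reads, a signal of 0.318 to 0.385 in SAG and 0.124 to 0.169 in DMSO. Eif3j1 and Eif3j2, copies on chromosomes 2 and 18, held the same value in every library, so their reads cannot be told apart. They are 1 measurement that enters the counts of rows given here as 2 rows. Many of the other factor genes have processed pseudogenes, and how the counting treated shared reads is not given in the sources used here.

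Among the factors that choose the start codon, both eIF1A genes and Eif5 fell, while the eIF1 genes were not called. That is 3 of 6 genes lower, against 16.6% of all genes tested. Eif1a (chromosome 18, 46597701 to 46616456, plus strand, GRCm38) had signals of 88.4, 64.6 and 88.0 in SAG and of 142, 137 and 146 in DMSO, and was 1.76-fold lower (log2 fold change -0.83, SE 0.13; limma, adjusted p = 0.00190). Every SAG value lay well under the lowest DMSO value. Its X-linked paralog Eif1ax had 90.0, 60.8 and 77.2 in SAG and 123, 118 and 113 in DMSO, 1.55-fold lower (-0.64, SE 0.14; adjusted p = 0.00868). eIF1A opens the small subunit for scanning, and the 2 genes encode nearly the same protein.

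Eif5, whose product triggers GTP hydrolysis by eIF2 at the start codon, had 232, 189 and 284 in SAG and 315, 305 and 330 in DMSO (-0.45, SE 0.14; limma, adjusted p = 0.0390). Its groups did not overlap, yet the call was kept in only 8 of the 18 alternatives. It was lost without SAG replicate 1 or 2 (adjusted p = 0.0869 and 0.0798), without DMSO replicate 1, 2 or 3 (0.119, 0.0986 and 0.141) and with length and GC trends removed (0.105). Eif1, the factor that guards against wrong start codons, averaged 352 ± 38.6 in SAG and 335 ± 14.2 in DMSO (SD, n = 3 each) with overlapping libraries. Its paralog Eif1b averaged 31.5 ± 1.85 in SAG and 34.2 ± 2.78 in DMSO, and Eif1ad, a protein with an eIF1A-like domain, 31.8 ± 2.84 and 28.3 ± 4.31; neither was called.

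**Figure D2:**
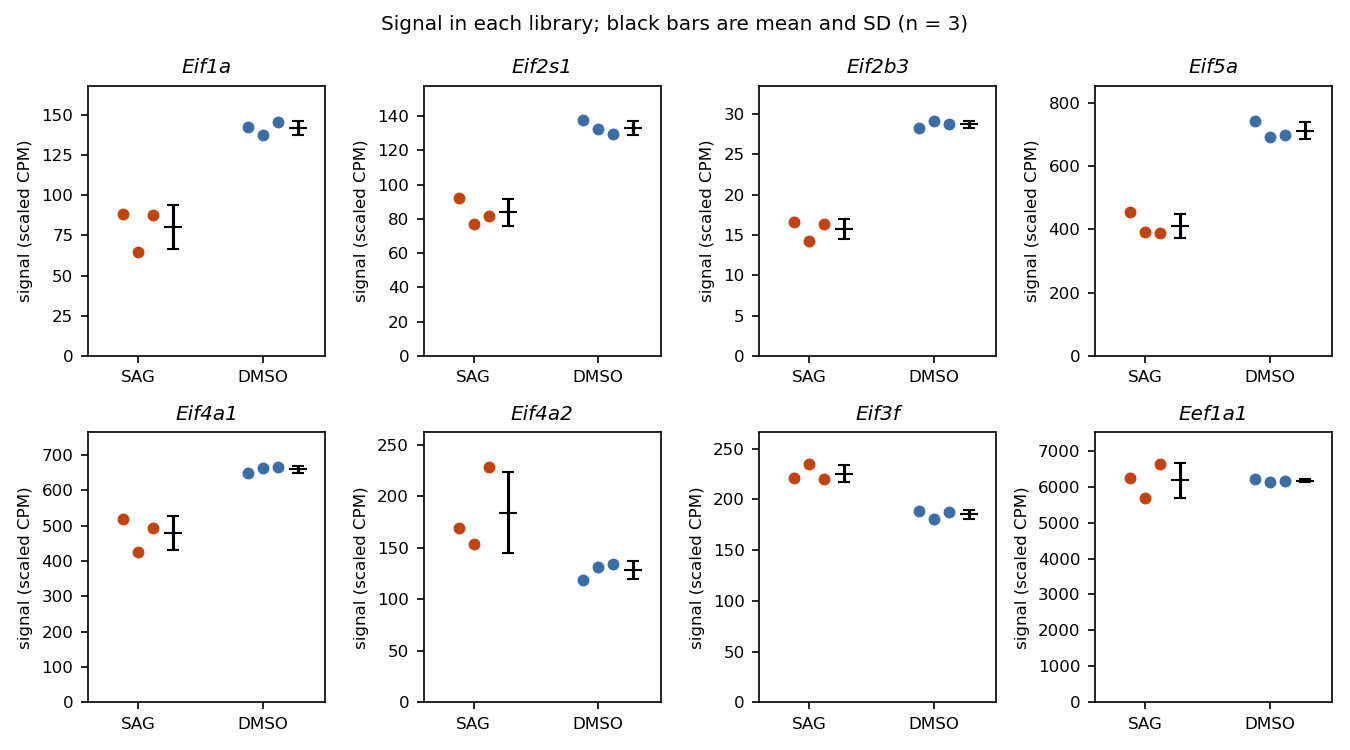
Signal (scaled CPM) in each SAG library, left in each panel, and each DMSO library, right, for 8 factor genes, with mean and SD (n = 3 each) as black bars. Eif1a, Eif2s1, Eif2b3, Eif5a and Eif4a1 have all SAG points below all DMSO points, Eif4a2 and Eif3f have them above, and Eef1a1 overlaps.

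All 6 genes of eIF2 and its helpers had lower mean signals with SAG, and 3 of them passed the test. Among all 12550 genes tested, 6635 had a log2 fold change below 0 and 16.6% were called lower. Eif2s1, the alpha subunit that stress kinases phosphorylate, had 92.4, 77.2 and 81.9 in SAG and 138, 132 and 130 in DMSO, 1.59-fold lower (-0.67, SE 0.10; limma, adjusted p = 0.00162). The gap between the groups was larger than the range within either. Eif2s3x, the X-linked gene of the GTP-binding gamma subunit, had 69.5, 62.2 and 54.1 in SAG against 91.5, 90.7 and 91.0 in DMSO (-0.56, SE 0.11; adjusted p = 0.00639). Its Y-linked copy Eif2s3y had 19.6, 17.9 and 20.3 in SAG and 24.6, 24.7 and 26.7 in DMSO (-0.38, SE 0.12; adjusted p = 0.0400).

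The Y copy was called in 6 of 18 alternatives only; the adjusted p was 0.0620 and 0.0806 without SAG replicate 1 and 2, and 0.114, 0.117 and 0.164 without DMSO replicate 1, 2 and 3. The ratio of Y to X copy within a library averaged 0.315 ± 0.0525 in SAG and 0.279 ± 0.0133 in DMSO, and the groups overlapped. Eif2s2, the beta subunit, averaged 181 ± 39.4 in SAG and 231 ± 7.25 in DMSO (adjusted p = 0.0773), with SAG replicate 1 inside the DMSO range. Eif2a and Eif2d, which can deliver tRNA outside the eIF2 route, had log2 fold changes of -0.37 and -0.32 (adjusted p = 0.0524 and 0.116).

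The eIF2B complex, the exchange factor for eIF2, had 3 of 5 subunit genes lower, against 16.6% of all genes tested. All 5 had groups that did not overlap, 4 with SAG below DMSO and 1 with SAG above. Among all genes tested, 26.8% lay below and 21.2% above in this way. Eif2b3, the gamma subunit of the catalytic part, had 16.6, 14.3 and 16.3 in SAG and 28.3, 29.1 and 28.8 in DMSO, 1.83-fold lower (-0.83, SE 0.12; limma, adjusted p = 0.00123). Eif2b1, the alpha subunit of the regulatory part, had 28.0, 28.9 and 28.9 in SAG and 41.2, 40.8 and 41.1 in DMSO (-0.50, SE 0.10; adjusted p = 0.00672). These 2 genes had little spread within either group.

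Eif2b5, the catalytic epsilon subunit, had 53.8, 55.3 and 53.8 in SAG and 77.5, 69.1 and 68.2 in DMSO (-0.39, SE 0.10; limma, adjusted p = 0.0190; 0.113, 0.0690 and 0.0641 without DMSO replicate 1, 2 and 3, and 0.0994 with scaling by totals). Eif2b4, the delta subunit, lay the other way at 30.5, 28.9 and 39.7 in SAG and 25.4, 23.3 and 24.5 in DMSO (0.41, SE 0.14; adjusted p = 0.0551). It passed the test without SAG replicate 2 and with scaling by totals, among other settings. Eif2b2, the beta subunit, was within 0.13 of no change on the log2 scale and not called. None of the 4 eIF2alpha kinase genes was called, where 29.6% of all genes tested were called in either direction. Eif2ak3 (PERK, the kinase of the endoplasmic reticulum) averaged 38.2 ± 4.93 in SAG and 30.2 ± 2.39 in DMSO (adjusted p = 0.0901), and Eif2ak2 (PKR, the sensor of double-stranded RNA) 18.8 ± 1.53 and 25.1 ± 2.79 (0.0534). Eif2ak1 and Eif2ak4, the sensors of haem and of amino acid shortage, overlapped between groups.

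Subunits of eIF3, the scaffold of the initiation complex, did not move as a unit. Of 14 rows, 2 fell, 1 rose and 11 were not called, with a median log2 fold change of -0.25. The calls are 14.3% lower and 7.14% higher, under the 16.6% and 12.9% of all genes tested. Eif3a, the largest subunit, had 428, 411 and 511 in SAG and 694, 669 and 679 in DMSO, 1.51-fold lower (-0.60, SE 0.11; limma, adjusted p = 0.00311). Eif3l had 121, 122 and 88.1 in SAG and 191, 172 and 180 in DMSO, 1.64-fold lower (-0.72, SE 0.13; adjusted p = 0.00417).

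In contrast, Eif3f had 221, 235 and 220 in SAG and 189, 180 and 187 in DMSO, 1.21-fold higher (0.28, SE 0.09; limma, adjusted p = 0.0407). Its groups were apart by more than the range within either. The call of Eif3f was lost without SAG replicate 1 or 2 (0.0607 and 0.0685) and without DMSO replicate 1, 2 or 3 (0.133, 0.172 and 0.144). Eif3c, Eif3h, Eif3k and Eif3g differed between groups by at most 0.05 on the log2 scale and overlapped. SAG replicate 3 stood apart for several subunits: Eif3m had 92.9, 82.9 and 136 in SAG against 86.0, 85.5 and 83.8 in DMSO, Eif3d had 145, 142 and 95.3 against 183, 160 and 177, and the shared Eif3j value was 36.7, 38.1 and 65.9 against 65.1, 65.2 and 71.4. Without that library 8 eIF3 rows fell, the Eif3j pair among them, when 27.0% of all genes fell. Without SAG replicate 2 the number was 4, and the share of all genes in that setting is not given here.

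Per kb of exon, the eIF3 subunits other than the Eif3j pair, whose reads are shared, spanned a wide range of values. In DMSO the level per kb was 111 ± 6.05 for Eif3h, 109 ± 2.59 for Eif3b and 93.1 ± 1.34 for Eif3c at the top, and 19.7 ± 0.467 for Eif3e at the bottom. Eif3h and Eif3b did not differ beyond their spread there, nor did Eif3d, Eif3i, Eif3k and Eif3m, which lay between 32.9 and 34.8. Eif3a stood above Eif3f in DMSO, and with SAG the order of the pair was the opposite, at 51.6 ± 6.14 for Eif3a and 77.9 ± 2.83 for Eif3f with SAG, against 78.0 ± 1.48 and 64.2 ± 1.53 in DMSO. Lengths are the union of exons in GENCODE M21, which may not be the annotation behind the counts. A union holds the exons of every annotated transcript, with 1612 bases for Eif3h and 6719 for Eif3e. It can be longer than the transcripts present in these cells. How far these lengths set the order of the subunits was not tested.

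**Figure D3:**
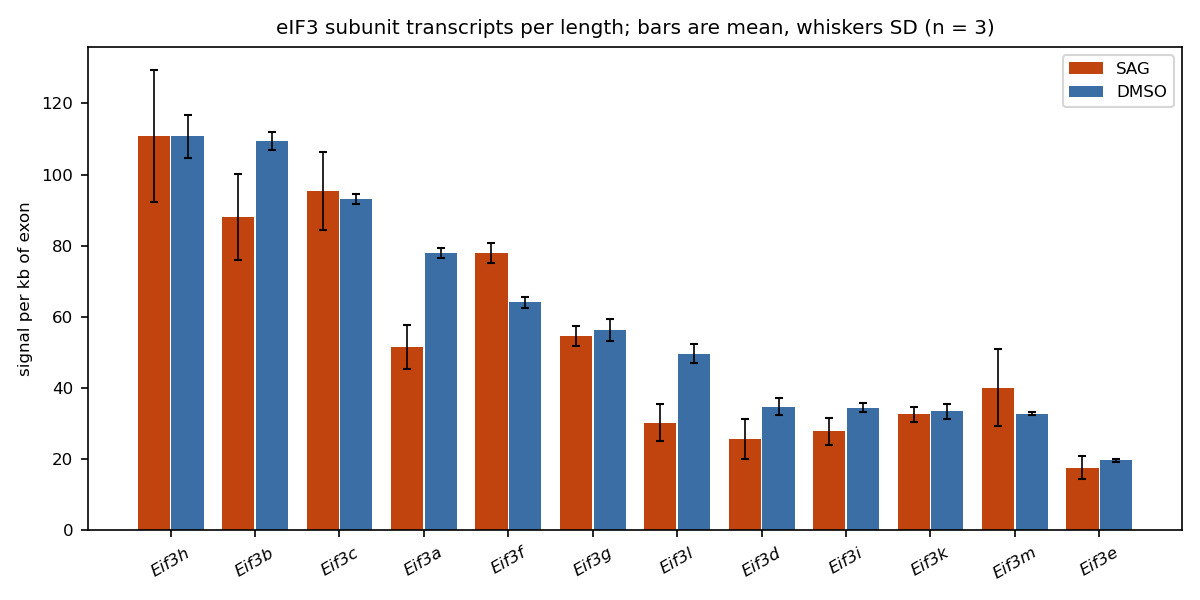
Signal per kb of exon for eIF3 subunit genes, SAG bars left of DMSO bars, with SD over 3 libraries as whiskers and genes ordered by their DMSO level; the Eif3j pair with shared reads is left out. Eif3a and Eif3l have lower SAG bars and Eif3f a higher one, while Eif3h, Eif3c, Eif3g and Eif3k are level.

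The cap-binding and unwinding factors fell for 5 of 11 tested genes and rose for 1 (45.5% and 9.09%), against 16.6% and 12.9% of all genes tested. Eif4g1, the main scaffold of eIF4F, had 715, 687 and 803 in SAG and 1004, 969 and 999.9 in DMSO, 1.35-fold lower (-0.43, SE 0.10; limma, adjusted p = 0.00931). Eif4g2 (DAP5), a scaffold that does not bind eIF4E, had 980, 829 and 956 in SAG and 1244, 1298 and 1255 in DMSO (-0.46, SE 0.10; adjusted p = 0.00833). For Eif4g3, the other eIF4E-binding scaffold, the signals were 164, 180 and 126 in SAG and 214, 217 and 216 in DMSO (-0.47, SE 0.13; adjusted p = 0.0243). The 3 scaffold genes thus fell by 1.35-fold to 1.38-fold. The call of Eif4g3 was lost with scaling by totals (limma, adjusted p = 0.117) and with limma without trend (0.0518).

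The helicase paralogs Eif4a1 and Eif4a2 went opposite ways. Eif4a1, the more abundant one, had 519, 427 and 493 in SAG and 648, 664 and 667 in DMSO, 1.38-fold lower (-0.46, SE 0.10; limma, adjusted p = 0.00853). Eif4a2 had 169, 154 and 228 in SAG and 119, 132 and 134 in DMSO, 1.43-fold higher (0.50, SE 0.15; adjusted p = 0.0293). Within a library the ratio of Eif4a2 to Eif4a1 was 0.325, 0.361 and 0.463 in SAG and 0.183, 0.199 and 0.202 in DMSO. This ratio does not depend on library scaling; its log2 was higher by 0.96 in SAG, with an exact two-sided permutation p of 0.1, the smallest that 3 against 3 libraries can give, and 0.2 when adjusted over the 10 pairs compared. Eif4a3, the exon junction helicase, averaged 104 ± 7.62 in SAG and 108 ± 5.29 in DMSO and was not called.

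Single libraries bore on these calls. The adjusted p was 0.0524 for Eif4a1 without DMSO replicate 3, 0.0533 for Eif4g2 without DMSO replicate 2, and 0.0587 and 0.0582 for Eif4g1 without DMSO replicate 1 and 3. For Eif4a2 it was 0.125, 0.0831 and 0.0790 without DMSO replicate 1, 2 and 3, and for Eif4g3 0.0869, 0.0888 and 0.0914. The call of Eif4a2 was also lost with limma without trend (adjusted p = 0.0584). The count of lower genes in the group was 2, 2 and 1 without DMSO replicate 1, 2 and 3, with 0 higher. Of all genes, 8.71%, 9.04% and 8.65% were then lower and 7.41%, 7.71% and 7.18% higher.

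Among the cap-binding proteins only the paralog Eif4e2 (4EHP, a repressor at the cap) was called, at 92.4, 86.0 and 101 in SAG and 111, 119 and 114 in DMSO (-0.30, SE 0.10; limma, adjusted p = 0.0468). That call was kept in 5 of 18 alternatives. It was lost without SAG replicate 1 or 2 (0.0850 and 0.0912), without any DMSO replicate (0.129 to 0.181) and with edgeR and DESeq2 (0.0675 and 0.0623). Eif4e itself, the protein that binds the cap, averaged 64.2 ± 7.50 in SAG and 76.2 ± 6.18 in DMSO (adjusted p = 0.15). Eif4e3 averaged 13.6 ± 1.11 in SAG and 10.3 ± 0.719 in DMSO (adjusted p = 0.0756), and its ratio to Eif4e was 0.212 ± 0.00807 in SAG and 0.136 ± 0.0190 in DMSO, with no overlap (exact permutation p = 0.1; 0.2 adjusted over the pairs). The helicase cofactors Eif4b and Eif4h were not called; Eif4b averaged 355 ± 12.4 in SAG and 359 ± 9.15 in DMSO.

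The proteins that hold eIF4E in check were not called, for 4 of 4 genes, where 29.6% of all genes tested were called in either direction. Eif4ebp1, the main eIF4E-binding protein downstream of mTOR, had 186, 184 and 162 in SAG and 224, 210 and 186 in DMSO (-0.22, SE 0.11; limma, adjusted p = 0.154). Eif4ebp2 had 53.2, 57.7 and 37.8 in SAG and 43.6, 47.1 and 41.7 in DMSO, with SAG replicate 3 under the DMSO range and the other SAG libraries above it. It was called higher without SAG replicate 3. The ratio of Eif4ebp2 to Eif4ebp1 was 0.277 ± 0.0410 in SAG and 0.214 ± 0.0171 in DMSO, not overlapping (exact permutation p = 0.1; 0.2 adjusted over the pairs). Eif4ebp3 was low, at 5.14 ± 0.550 in SAG and 3.29 ± 0.584 in DMSO (0.52, SE 0.19; adjusted p = 0.0649), and Eif4enif1, which carries eIF4E into the nucleus, averaged 60.3 ± 4.43 and 58.2 ± 1.27.

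**Figure D4:**
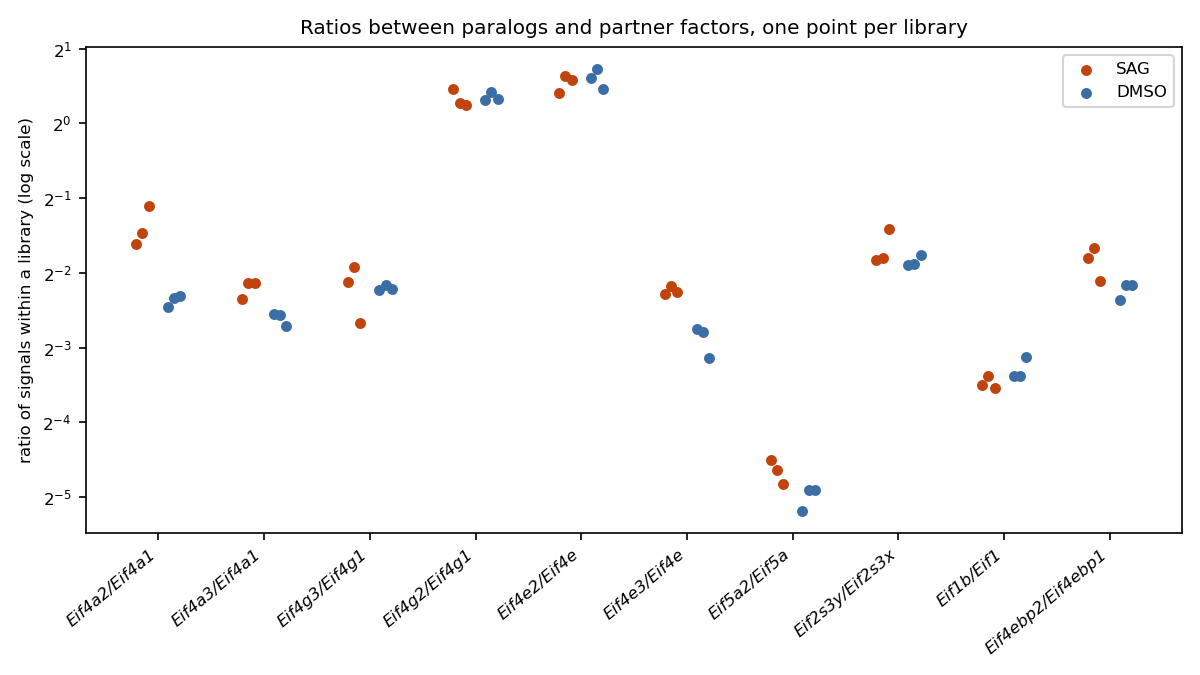
Ratio of the signals of 2 related genes within each library on a log scale, with SAG points left of DMSO points in each of the 10 pairs. The SAG points lie above all DMSO points for Eif4a2 over Eif4a1, Eif4a3 over Eif4a1, Eif4e3 over Eif4e, Eif5a2 over Eif5a and Eif4ebp2 over Eif4ebp1, and overlap them for the other 5 pairs.

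Eif5a had the smallest adjusted p of all the factors. The eIF5A proteins are the only ones known to carry hypusine, a modified lysine. Eif5a (chromosome 11, 69916714 to 69921958, minus strand) had 454, 390 and 389 in SAG and 743, 692 and 699 in DMSO, 1.73-fold lower (-0.79, SE 0.10; limma, adjusted p = 5.6e-04). Its log2 fold change lay between -0.87 and -0.65 over the alternatives. The paralog Eif5a2 had 20.0, 15.7 and 13.7 in SAG and 20.5, 23.0 and 23.3 in DMSO (-0.43, SE 0.16; adjusted p = 0.0661). The ratio of Eif5a2 to Eif5a was 0.0398 ± 0.00434 in SAG and 0.0314 ± 0.00329 in DMSO (exact permutation p = 0.1; 0.2 adjusted over the pairs).

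Eif5b, which joins the ribosomal subunits, averaged 190 ± 23.2 in SAG and 218 ± 1.31 in DMSO (limma, adjusted p = 0.180). Eif6, which keeps the large subunit apart until it is mature, had 113, 107 and 182 in SAG and 136, 116 and 127 in DMSO. SAG replicate 3 was above, and the other SAG libraries below, every DMSO library, so that leaving SAG replicate 3 out took its log2 fold change to -0.19, against 0.05 with every library in.

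The elongation factors with the highest signals were not called with the deposited values. Eef1a1, the most abundant factor transcript, had 6229, 5669 and 6619 in SAG and 6222, 6136 and 6144 in DMSO (0.00 on the log2 scale, SE 0.11; limma, adjusted p = 0.993). The SAG libraries lay on both sides of the DMSO range. Eef2, the translocase, had 2654, 2918 and 2338 in SAG and 3002, 2852 and 2829 in DMSO (-0.14, SE 0.11; adjusted p = 0.373). With length and GC trends removed Eef2 was called lower (-0.33, limma, adjusted p = 0.0355). Per kb, Eef1a1 was at 2476 in SAG and 2474 in DMSO, and Eef2 at 793 and 871.

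Of the genes of eEF1B and its partner, Eef1b2 and Eef1e1 fell. With Eef1a1 counted in, 2 of 5 tested eEF1 genes were lower, against 16.6% of all genes tested. Eef1b2, the exchange factor that recharges eEF1A, had 399, 346 and 490 in SAG and 554, 540 and 529 in DMSO (-0.41, SE 0.13; limma, adjusted p = 0.0380). That call was lost without SAG replicate 1 or 2 (0.0932 and 0.0849) and without DMSO replicate 1, 2 or 3 (0.135, 0.119 and 0.112), and with scaling by totals (0.115). Eef1e1 (AIMP3), a scaffold of the aminoacyl-tRNA synthetase complex despite its symbol, had 20.9, 13.3 and 18.6 in SAG and 31.6, 32.1 and 33.6 in DMSO, 1.84-fold lower (-0.87, SE 0.16; adjusted p = 0.00435). Eef1g had 762, 647 and 852 in SAG and 910, 922 and 891 in DMSO (adjusted p = 0.0954), and Eef1d 151, 149 and 245 in SAG and 231, 214 and 212 in DMSO (0.221), with SAG replicate 3 the high value in each.

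Eef2k, the kinase that switches eEF2 off, fell 1.3-fold, with 73.0, 70.4 and 74.9 in SAG and 102, 91.7 and 89.9 in DMSO (-0.37, SE 0.10; limma, adjusted p = 0.0211). Without DMSO replicate 1, 2 or 3 its adjusted p was 0.123, 0.0754 and 0.0673, and with scaling by totals 0.107. Eef2kmt, a methyltransferase of eEF2, had 14.7, 21.7 and 23.1 in SAG and 14.6, 15.3 and 14.3 in DMSO (0.38, SE 0.17; adjusted p = 0.127). Its SAG replicate 1 lay within the DMSO range.

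Messengers with a 5′-terminal oligopyrimidine tract, whose translation follows mTOR, include 9 of these factors. Of those 9, 1 fell (Eef1b2), 1 rose (Eif3f) and 7 were not called, with a median log2 fold change of -0.14. That is 11.1% in each direction, under the 16.6% lower and 12.9% higher among all genes tested. Without SAG replicate 3 the count was 4 lower and 1 higher, when 27.0% of all genes were lower and 19.7% higher. With any single other library left out it was 0 lower and 0 higher. Without a DMSO library, 8.65% to 9.04% of all genes were lower and 7.18% to 7.71% higher. Rows called lower had a median exon length of 4642.5 bases and a GC content of 47.6%, rows not called 3428.5 bases and 51.7%, and all genes tested 4525.5 bases and 50.3%. With trends of length and GC removed from each library, 22 factor rows were lower and 3 higher. The median was then -0.26 over the factors and -0.03 over all genes, and the share of all genes called is not given here.

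The E-box CACGTG, the motif that MYC and related proteins bind, was looked up in RefSeq promoter windows on GRCm38.p6. Each window runs from 250 bases before to 50 after an annotated start, and some genes have several. Windows were found for 50 of the 64 factors, and 12 of these genes (24.0%) held the motif, which reads the same on both strands. Among the genes tested across the table with a window, 11.9% held it, and 8.09% of all genes with a window. With genes of a single window only, the shares were 20.9% of 43 factors and 10.5% of the genes tested. Median GC content of the windows was 62.2% for the factors and 61.3% for the genes tested. The motif was in the windows of 5 of 17 factors called lower, 1 of 2 called higher and 6 of 30 not called. A match is a description of these letters and not evidence of binding.

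Stretches of 80 bases around the motif are shown for 4 factors that fell and for Eif3f, which rose. The motif thus stood in promoter windows of genes of both directions. Those of Eif5a and Eif4g1 lie inside the GENCODE bounds of the gene, before a RefSeq start within it. Capitals mark the motif, each stretch reads 5′ to 3′ along the gene's strand, and no exon of GENCODE M21 overlaps any of them.
Eif5a, chr11:69921418-69921497, minus strand: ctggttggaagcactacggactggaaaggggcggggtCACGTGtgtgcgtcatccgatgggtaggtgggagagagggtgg
Eif4a1, chr11:69672570-69672649, minus strand: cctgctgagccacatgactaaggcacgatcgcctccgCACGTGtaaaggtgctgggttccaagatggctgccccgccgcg
Eif4g1, chr16:20672636-20672715, plus strand: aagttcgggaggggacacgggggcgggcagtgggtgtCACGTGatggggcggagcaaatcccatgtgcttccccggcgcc
Eef2k, chr7:120842751-120842830, plus strand: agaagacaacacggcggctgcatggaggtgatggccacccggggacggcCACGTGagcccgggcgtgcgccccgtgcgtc
Eif3f, chr7:108934310-108934389, plus strand: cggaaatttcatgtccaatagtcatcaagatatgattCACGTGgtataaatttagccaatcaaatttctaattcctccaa
The first base of the motif lay 74 bases before the nearer of the Eif5a starts downstream of it, and 54 bases before a start inside the Eif4g1 gene. For Eif4a1, Eef2k and Eif3f it lay 189, 31 and 68 bases before the start of the gene. Eif4a2, which rose, had no such motif in its window.

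Counts of other translation genes are to be read against the 16.6% lower and 12.9% higher among all genes tested. Of 14 helper initiation factors 5 fell and 0 rose. Dhx29, a helicase that helps structured messengers into the small subunit, had 31.9, 26.7 and 27.5 in SAG and 54.7, 49.1 and 52.0 in DMSO, 1.81-fold lower (-0.84, SE 0.12; limma, adjusted p = 9.6e-04). Ddx3x, another such helicase, was 1.59-fold lower, at 269 ± 23.6 in SAG and 428 ± 15.5 in DMSO. Of 11 termination and rescue genes 5 fell and 1 rose, with a median log2 fold change of 0.01, 6 values above 0 and 5 below. Among them was Abce1, the recycling ATPase, at 134, 104 and 85.8 in SAG and 190, 188 and 192 in DMSO (-0.83, SE 0.15; adjusted p = 0.00325). Nemf, a rescue factor of stalled large subunits, was 1.68-fold lower, at 29.7 ± 4.25 in SAG and 49.8 ± 2.66 in DMSO. The rescue GTPase gene Gtpbp2 was the one that rose (0.67, SE 0.12; named after its value was seen).

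Of 5 poly(A)-binding and PAIP genes 2 fell, Pabpc1 at 739 ± 58.0 in SAG and 1116 ± 13.8 in DMSO (1.51-fold lower) and Pabpc4 at 268 ± 19.9 and 351 ± 13.7. Of 20 cytosolic aminoacyl-tRNA synthetase genes 5 fell and 0 rose, among them Nars at 432 ± 88.0 in SAG and 637 ± 20.2 in DMSO and Rars at 89.0 ± 12.6 and 130 ± 1.52. Of 9 mitochondrial factors 1 fell (11.1%, under the share of all genes), Gfm1 (mitochondrial elongation factor G; -0.50, SE 0.13), and Mtif2 was not called. Without DMSO replicate 1, 2 or 3, Gfm1 lost its call (limma, adjusted p = 0.0669, 0.0799 and 0.0533), as did Pabpc4 (0.0845, 0.0791 and 0.0552), and Nars lost it without DMSO replicate 1 or 3 (0.0595 and 0.0614). Leaving out DMSO replicate 1, 2 or 3 left 1, 2 and 1 synthetases lower, 2, 3 and 2 helper factors, 3, 2 and 3 termination genes, 1 poly(A)-binding or PAIP gene each time and 0 mitochondrial factors. Of all genes, 8.71%, 9.04% and 8.65% were lower in those settings. Leaving out SAG replicate 3 gave 11 synthetases, 8 helper factors and 5 termination genes lower, when 27.0% of all genes were lower. With scaling by totals 2 synthetases were lower and 1 was higher, when 10.0% of all genes were lower and 19.7% higher.

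Of 17 genes of upstream control 3 rose and 2 fell, 17.6% and 11.8% of the list, against 12.9% and 16.6% of all genes tested. The lower genes numbered 0, 1 and 0 without DMSO replicate 1, 2 and 3, when 8.71%, 9.04% and 8.65% of all genes were lower. Deptor, an inhibitor bound to mTOR, had 24.7, 31.5 and 24.0 in SAG and 8.28, 6.19 and 8.23 in DMSO, 3.53-fold higher (log2 fold change 1.69, SE 0.17; limma, adjusted p = 1.4e-04). No SAG library came near the DMSO range. Pdcd4, which blocks eIF4A, had 32.7, 31.4 and 50.1 in SAG against a DMSO mean of 19.5 ± 0.162, 1.95-fold higher (0.89, SE 0.17; adjusted p = 0.00507). The third was the eIF4E kinase gene Mknk2 (0.52; 0.26 with length and GC trends removed, where limma's adjusted p was 0.0679), and those that fell were Rps6kb1 (S6 kinase; -0.51) and Ppp1r15b (a phosphatase subunit for eIF2alpha; -0.54), all 3 named after their values were seen. Rps6kb1 lost its call without DMSO replicate 1, 2 or 3 (0.0570, 0.0598 and 0.0810) and Ppp1r15b without DMSO replicate 1 or 3 (0.0545 and 0.0535).

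**Figure D5:**
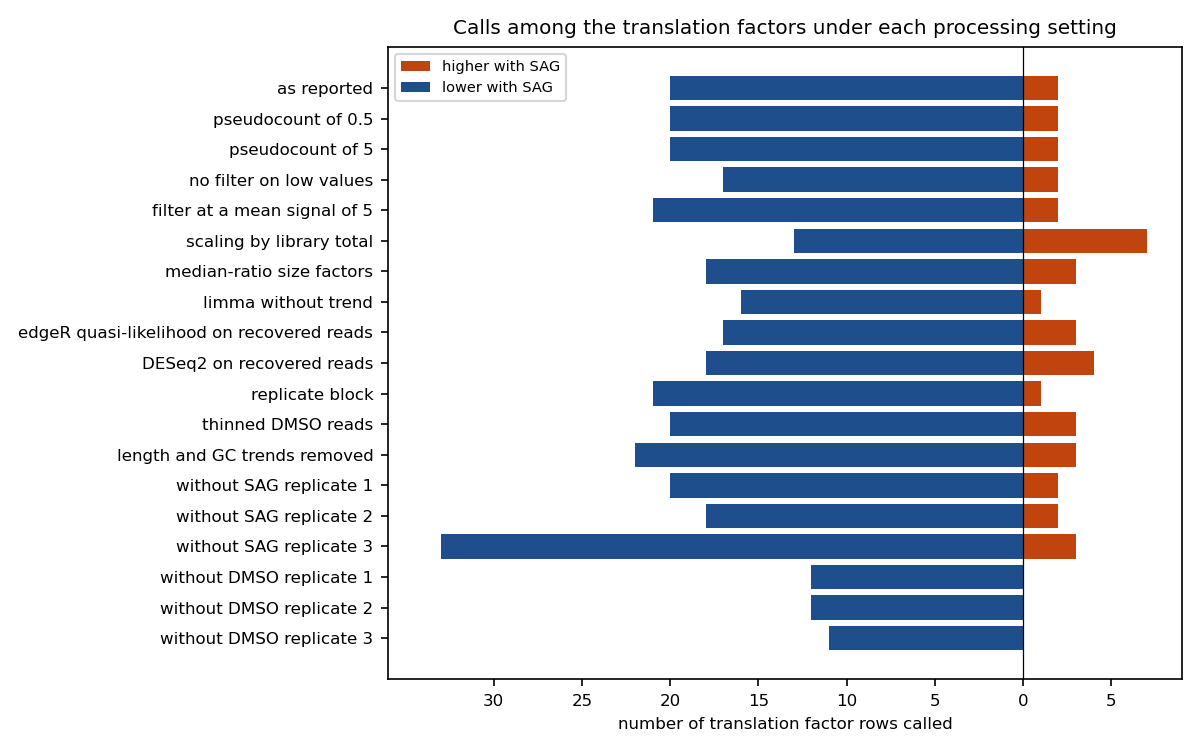
Number of factor rows called higher with SAG (right of 0) and lower with SAG (left of 0) as reported and in each of 18 processing settings. The lower rows number between 11 (DMSO replicate 3 left out) and 33 (SAG replicate 3 left out) and outnumber the higher rows, 0 to 7, in every setting shown.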

How the data were processed

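The submitters' processing notes name STAR, Trim Galore (0.6.4), edgeR (as 2.2.1), featureCounts (2.0.0) and the mouse build GRCm38 (mm10). Which annotation, strand setting and filters were used is not given in the sources used here. One table was what the authors deposited, with scaled CPM signal for 24505 rows. In each column 100% of values were whole multiples of 1 step (tolerance 0.01), which gave back whole reads. The column sums gave scaling factors close to TMM factors computed from those reads. The 92 spike-in rows, which name no gene, were left out of the tests. Their share was 0.0157% of reads or less in every library.

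The main test was limma 3.58.1 on log2(signal + 1) (eBayes with trend, R 4.3.3) on the 12550 genes whose mean signal reached 1, adjusted over all of them, with a call at an adjusted p under 0.05. The quasi-likelihood test of edgeR 4.0.16 on the recovered reads called 17 factor rows lower and 3 higher, and DESeq2 1.42.0 called 18 and 4. The shares of all genes that these tests called are not given here, so those counts stand without a background. Other alternatives were pseudocounts, filters, scalings, thinned DMSO reads, length and GC trends, a replicate block and each library left out. The limma step was also run on simulated counts in which few genes changed, equally up and down. The data here differ in that, so the run does not vouch for these calls. Whether replicates were separate cultures or animals is not stated, so the p-values cover only the spread among these samples, which may be technical. Members, lists and tests were chosen with earlier results of these data known. Named were the 4 members with the smallest p per role, larger called changes (0.5 or more on the log2 scale), paralog pairs, and the 2 smallest p per other list; members named beyond these were chosen after their values were seen. Coordinates are from GENCODE M21 and promoters from RefSeq (GRCm38.p6).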

Additional observations from a re-analysis of the deposited data

Results flagged for a closer look

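Spike-in RNAs, which belong to no comparison here, had 111, 54 and 1205 reads in SAG replicates 1, 2 and 3 and 0 in each DMSO library. The presence of a signal that the control libraries lack is what drew attention to them. They were not used in any test.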

How the results depend on the processing

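Factor rows called lower stayed within 1.5 times of 20 in 13 of 18 alternatives. The exceptions were scaling by totals (13) and leaving out SAG replicate 3 (33) or DMSO replicate 1, 2 or 3 (12, 12 and 11). Higher rows, 2 as reported, were 7 with scaling by totals, 1 with limma without trend, 4 with DESeq2 and 0 to 3 with 1 library left out. The row called higher with limma without trend was Eif4ebp3, and neither Eif4a2 nor Eif3f was called there. The median of the factors, -0.29, was -0.15 with scaling by totals and between -0.29 and -0.23 with 1 library left out. Over all genes, 1625 were higher and 2084 lower as reported, 2477 and 1259 with scaling by totals, and 901 to 2463 and 1086 to 3373 with 1 library left out. The replicate block gave 1 factor row higher and 21 lower, 18 of them among the 20, and the share of all genes called with it is not given here. The same replicate number did not tie libraries together: deviations from group means correlated at -0.02, 0.03 and 0.00 for numbers 1, 2 and 3, and SAG replicate 1 correlated best with DMSO replicate 3.

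Direction turned in uncalled factors near no change, and the cause was not tested. With scaling by totals the log2 fold change became 0.0025 for Eef2, 0.082 for Eif4a3, 0.10 for Eif2ak1, 0.14 for Eef1a1 and 0.025 for Eif1b. Eef1a1 was also at 0.025 with median-ratio size factors, 0.031 with edgeR, 0.039 with DESeq2 and 0.053 with length and GC trends removed, and between -0.054 and 0.058 with 1 library left out. Eif2ak1 was at 0.0016 with DESeq2 and Eif6 at -0.082 with length and GC trends removed. With 1 library left out, Eif6 ran from -0.19 to 0.18, Eif2ak1 from -0.090 to 0.018, Eif2ak4 from -0.020 to 0.14 and Eif4enif1 from -0.0017 to 0.10. The log2 ratio of Eif4g3 to Eif4g1 ran from -0.20 to 0.17, Eif4g2 to Eif4g1 from -0.0915 to 0.010 and Eif4e2 to Eif4e from -0.12 to 0.011. Of the other values for 49 named members, 758 kept direction and side of the threshold, 72 lost it and 33 gained it. SAG depth, at 7694479 to 8804335 reads, limits the low members such as Eif4ebp3 most.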

Other observations

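The Eif3j pair was not alone in sharing values: 29 gene rows with a mean signal of at least 1 held values identical to those of another row in all 6 libraries. Among them were Oaz1 and Oaz1-ps (2954, 3039 and 2629 reads each in SAG, and 5020, 4635 and 3690 in DMSO), Rpl26 and Gm15772, and Amd1 and Amd2. SAG replicate 3 differed from the mean of the other SAG libraries by more than 1.3-fold for 16 factor rows, being higher for 10, led by the Eif3j pair (1.76-fold), Eif6 (1.65-fold) and Eef1d (1.63-fold), and lower for 6, led by Eif3d (0.663 times).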
